A study of Mus musculus with 12 samples.

Results

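Guanylate-binding proteins (GBPs) and immunity-related GTPases (IRGs) were followed in airway macrophages (AMs) of mice with and without muco-obstructive lung disease, in medium and after lipopolysaccharide (LPS). The genes were chosen by name: 4 guanylate-binding proteins (Gbp2, Gbp3, Gbp5 and Gbp7) and 5 immunity-related GTPases (Irgm1, Irgm2, Igtp, Iigp1 and Ifi47). Of these 9 genes, 8 were found by Ensembl ID among the 20551 genes of the count table, and Gbp5 was not analysed here. All 8 were among the 13729 genes that passed the filter on low counts. Iigp1 passed it through its LPS libraries alone, so counts and medians below cover the other 7, which were above the detection floor in every group.

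By the numbers in their titles, the 12 libraries came from 6 pools of AMs, each with 1 medium and 1 LPS library, giving 4 groups of 3. Pools WT 16, 17 and 18 came from wild-type (WT) littermates and pools Tg 17, 18 and 19 from Scnn1b-Tg mice, all on a C57BL/6 background. Scnn1b-Tg mice carry a sodium channel subunit under the club cell secretory protein promoter and not, per the study, in AMs, so the AMs differ in the lung they came from. Per the labels, a pool held the lavage cells of 3 to 4 animals, and the methods give female mice of 6 weeks for sorted and sequenced AMs. LPS was from P. aeruginosa at 100 ng/ml for 12 h, and the control was complete DMEM for the same time. The labels and the methods differ on isolation, since the labels describe cells that adhered to plastic and the methods describe sorting for CD45, Siglec-F and CD11c. The batch given in the labels placed Tg 17 with WT 16 and WT 17 (batch 1), and WT 18 with Tg 18 and Tg 19 (batch 2). The study adjusted for the date of library preparation, and the methods do not state whether this batch is that date.

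GBPs and IRGs are GTPases of cell-autonomous immunity that interferons induce strongly in macrophages. They assemble on vacuoles that hold bacteria or parasites and, in the case of GBPs, on bacteria themselves, where they open the compartment and expose LPS to the inflammatory caspase Casp4 (caspase-11). Among the IRGs, Irgm1, Irgm2 and Igtp (Irgm3) are regulators that sit on host membranes and hold the effectors back, whereas Iigp1 (Irga6) and Ifi47 (Irgd) are effectors. Their promoters are textbook targets of interferon response factors, which bind GAAA repeats, and many also hold gamma-activated sequences.

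The promoter sequences are shown because the members moved together, and they let a reader see which letters they share. RefSeq (GRCm38.p6, the mm10 build) gave windows from 250 bases before to 50 bases after the transcript start for 7 of the 8 members. Of these 7, 6 held a paired GAAA repeat, that is GAAA, any 2 bases and GAAA on either strand, in at least 1 window, against 3.99% of 27025 genes. Gbp3 had 2 windows, of which 1 held the repeat, so it was in 6 of the 8 windows of the members, against 3.44% of all 32851 windows. Ifi47 did not have these letters in its window. The stretches of 60 bases below have the matches in capitals, and those of Gbp2, Gbp3 and Gbp7 show the repeat on the opposite strand (TTTC), with overlapping matches in Gbp3 and Irgm1. They lie at chr3:142620579-142620638 (Gbp2, plus strand), chr3:142559977-142560036 (Gbp3, plus), chr3:142530258-142530317 (Gbp7, plus), chr11:48871413-48871472 (Irgm1, minus), chr11:58214888-58214947 (Irgm2, plus) and chr11:58199497-58199556 (Igtp, plus).
Gbp2: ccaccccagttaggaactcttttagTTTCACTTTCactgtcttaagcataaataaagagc
Gbp3: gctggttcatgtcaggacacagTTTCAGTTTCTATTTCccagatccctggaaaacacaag
Gbp7: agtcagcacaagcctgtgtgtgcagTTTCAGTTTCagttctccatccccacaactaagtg
Irgm1: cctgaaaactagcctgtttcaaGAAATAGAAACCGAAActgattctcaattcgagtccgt
Irgm2: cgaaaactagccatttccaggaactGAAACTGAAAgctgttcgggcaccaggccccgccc
Igtp: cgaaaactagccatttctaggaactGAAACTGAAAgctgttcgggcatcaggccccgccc

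All matches of the GAAA repeat lay between positions -64 and -15 relative to the RefSeq transcript start. That start is not always the edge of the gene span given below. The stretches of Irgm1 and Irgm2 lay inside their spans. Those of Gbp2 and Gbp3 reached into their spans, and that of Igtp did so with its last base. The stretches of Irgm2 and Igtp, neighbours on chromosome 11, differed at 2 of 60 bases. A gamma-activated type sequence, TTCNNNGAA, which reads the same on both strands, was present in Gbp7, Irgm2 and Igtp, 3 of the 7 members, against 9.55% of genes and 8.3% of all windows. It did not overlap the GAAA repeats. An NF-kB type sequence (GGG, any 2 bases, then TTTCC, on either strand) was found in 0 of the 7 members and in 1.89% of genes, and in 1.63% of all windows. These matches describe letters only, and binding was not measured in these libraries.

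**Figure D1:**
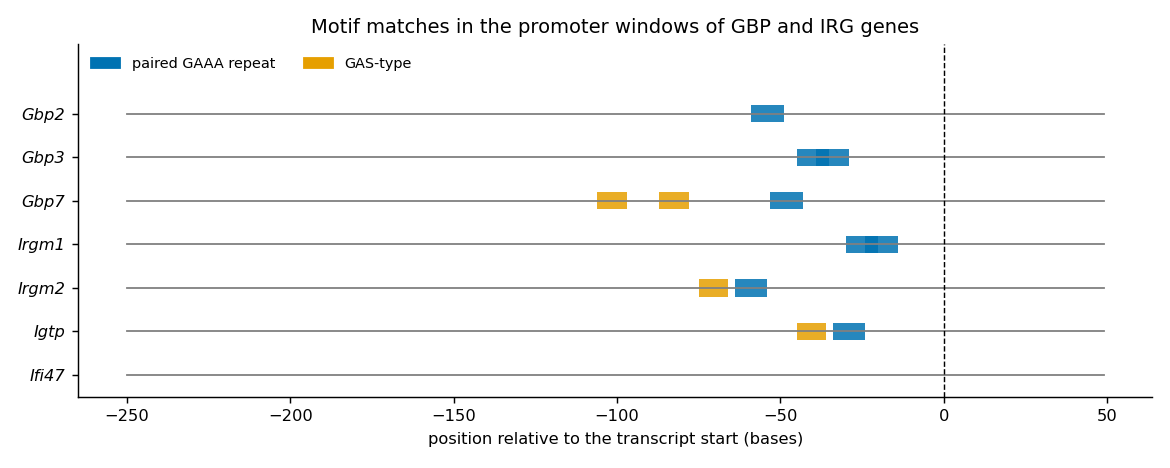
Positions of motif matches in the RefSeq promoter windows of 7 members, in bases relative to the transcript start (dashed line), with each grey line a window of 300 bases. Blue boxes are paired GAAA repeats, which sit between positions -64 and -15 in 6 genes, and orange boxes are gamma-activated type sequences, which are present in Gbp7, Irgm2 and Igtp.

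Totals ran from 48.19 to 60.9 M deposited counts per library, which are estimated counts and not read numbers. Levels are given as counts per M counts after TMM scaling (CPM), as mean ± SD of 3 libraries. The floor was 8 counts in a library, the worth of 3 reads, or 0.137 to 0.163 CPM. All 10 AM markers were above the floor and summed to 8558 to 17377 CPM in every library, although they moved in mixed directions after LPS. Siglecf, Pparg, Fabp4, Mrc1, Ear2 and Mertk were lower in every LPS library than in any medium library of the genotype, and Marco and Car4 were higher. Fibroblast and endothelial markers summed to 0.107 to 0.859 CPM in medium and 4.05 to 8.98 CPM in LPS, where Dcn held nearly all of the sum and Col1a1 and Col3a1 were at the floor throughout. Dendritic cell markers summed to 0.754 to 1.29 CPM in medium and 2.06 to 3.57 CPM in LPS, mostly as Zbtb46, and the part of these changes in the LPS results was not tested. T and NK cell markers summed to at most 1.16 CPM, with Gzmb and Prf1 at the floor throughout, and the 4 erythroid markers were at the floor. Scnn1b lay between 0 and 0.755 CPM in all groups and did not separate the genotypes. In bulk samples, a lower level cannot be split into fewer cells of a type and less RNA per cell.

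Levels of different genes were compared per kb of exon. In WT AMs in medium, Irgm1 (12.2 ± 3.10 CPM per kb), Igtp (12.2 ± 3.49) and Gbp2 (11.2 ± 4.01) were the most abundant and did not differ beyond their spread. Irgm2 (4.06 ± 0.82), Ifi47 (3.97 ± 1.96), Gbp7 (2.49 ± 0.86) and Gbp3 (1.42 ± 0.78) followed, each within reach of its neighbour. After LPS, Gbp2 stood alone at the top in WT AMs with 148 ± 20.5 CPM per kb. Igtp (36.4 ± 4.87), Gbp3 (31.3 ± 5.95) and Irgm1 (27.2 ± 2.38) came next with adjoining ranges of mean ± SD, then Ifi47 (17.4 ± 5.64) and Gbp7 (15.5 ± 3.78), and Irgm2 was the lowest at 9.16 ± 1.58. Scnn1b-Tg AMs in LPS had the same gene at the top, Gbp2 with 247 ± 51.2 CPM per kb, and the same gene at the bottom, Irgm2 with 12.2 ± 4.22. Gbp3 (59.8 ± 17.9) and Igtp (45.7 ± 9.82) exchanged places between the genotypes, with overlapping ranges in each.

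**Figure D2:**
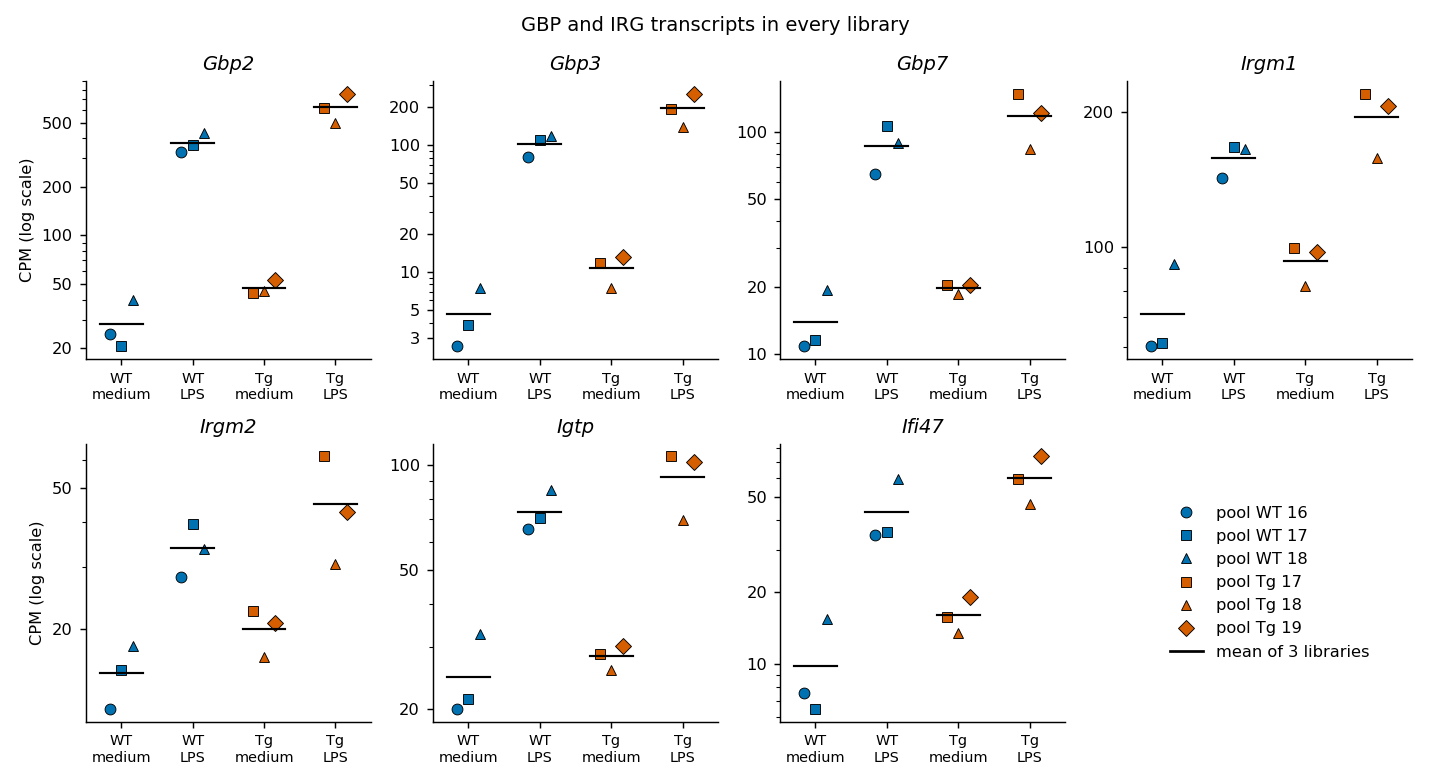
CPM (log scale, a separate scale for each gene) of 7 members in every library, with colour for genotype, symbol for pool and a bar for the mean of 3 libraries. LPS libraries lie above all medium libraries of the same genotype for all 7 genes, and pool WT 18 is the highest WT library in medium for all 7.

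LPS raised the 3 guanylate-binding members the most. Gbp2 (ENSMUSG00000028270, chr3:142620602-142638008) encodes a GBP that is carried to pathogen vacuoles. It measured 24.4, 20.5 and 39.6 CPM in medium and 328, 363 and 429 CPM in LPS in pools WT 16, 17 and 18. In pools Tg 17, 18 and 19 it measured 44.1, 45.2 and 53.0 CPM in medium and 613, 498 and 755 CPM in LPS. Every LPS library was thus far above every medium library. The log2 fold change with LPS was 3.76 ± 0.21 (SE) in WT and 3.72 ± 0.21 in Scnn1b-Tg AMs, that is 13.5-fold and 13.2-fold, with adjusted p of 4.455e-07 and 2.657e-07 (edgeR quasi-likelihood test, Benjamini-Hochberg over 13729 genes).

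Gbp3 (ENSMUSG00000028268, chr3:142560026-142573209) had the steepest response of the 7. It measured 2.60, 3.85 and 7.49 CPM in medium and 80.3, 109 and 117 CPM in LPS in the WT pools. The Scnn1b-Tg pools gave 11.7, 7.47 and 13.1 CPM in medium and 192, 138 and 255 CPM in LPS. Pool WT 18 in medium reached the level of Tg 18, and the other WT pools lay below all Scnn1b-Tg pools. The log2 fold change was 4.50 ± 0.38 in WT and 4.17 ± 0.37 in Scnn1b-Tg AMs (adjusted p = 8.146e-06 and 7.915e-06, edgeR), or 22.7-fold and 17.97-fold.

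Gbp7 (ENSMUSG00000040253, chr3:142530342-142550149) lies next to Gbp3 in the same cluster of chromosome 3. Its values were 10.8, 11.6 and 19.5 CPM in medium and 65.0, 107 and 89.4 CPM in LPS in WT, and 20.4, 18.7 and 20.5 CPM in medium and 150, 84.2 and 122 CPM in LPS in Scnn1b-Tg pools. The genotypes overlapped in both treatments, while medium and LPS did not. It rose 6.27-fold in WT (log2 2.65 ± 0.28, adjusted p = 4.392e-05, edgeR) and 5.99-fold in Scnn1b-Tg AMs (2.58 ± 0.28, adjusted p = 3.535e-05). Of its 50-base transcript windows, 12.7% also occur in other genes, mainly Gm43802 with which its exons overlap over 637 bases, so its count is less certain than those of Gbp2 (2.03%) and Gbp3 (3.75%).

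The regulators among the IRGs rose less than the GBPs. Irgm1 (ENSMUSG00000046879, chr11:48861968-48871683) is required for control of intracellular bacteria and for autophagy. It measured 60.2, 61.1 and 91.8 CPM in medium and 142, 167 and 166 CPM in LPS in WT, and 99.4, 81.8 and 97.7 CPM in medium and 220, 158 and 206 CPM in LPS in Scnn1b-Tg pools. Its log2 fold change was 1.16 ± 0.18 in WT and 1.07 ± 0.18 in Scnn1b-Tg AMs (adjusted p = 0.0005708 and 0.0007603, edgeR). Even its lowest LPS library, WT 16 at 142 CPM, lay above its highest medium library at 99.4 CPM.

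Irgm2 (ENSMUSG00000069874, chr11:58199618-58222782), a Golgi-associated regulator that restrains caspase-11, was the least abundant per kb after LPS. The WT pools measured 11.9, 15.3 and 17.9 CPM in medium and 28.0, 39.7 and 33.7 CPM in LPS. The Scnn1b-Tg pools measured 22.4, 16.6 and 20.7 CPM in medium and 61.5, 30.5 and 42.9 CPM in LPS, where Tg 17 and Tg 19 stood above and Tg 18 within the WT range. It rose 2.24-fold in WT (log2 1.16 ± 0.24, adjusted p = 0.00401, edgeR) and 2.24-fold in Scnn1b-Tg AMs (1.16 ± 0.24, adjusted p = 0.003227).

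Igtp (ENSMUSG00000078853, chr11:58199556-58207591) is the regulator of the endoplasmic reticulum and lipid droplets. It measured 19.95, 21.4 and 32.8 CPM in medium and 65.6, 70.5 and 84.5 CPM in LPS in WT, and 28.8, 25.8 and 30.3 CPM in medium and 106, 69.6 and 102 CPM in LPS in Scnn1b-Tg pools. Its rise was 3.00-fold in WT (log2 1.58 ± 0.20, adjusted p = 0.0001556, edgeR) and 3.28-fold in Scnn1b-Tg AMs (1.72 ± 0.20, adjusted p = 6.478e-05). In medium the pool WT 18 was above all 3 Scnn1b-Tg pools. Igtp and Irgm2 share 162 exon bases in the annotation, and 11.8% of the windows of Igtp and 7.83% of those of Irgm2 occur in other genes, chiefly in each other, so reads could be divided between them.

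Of the effectors, Ifi47 (ENSMUSG00000078920, chr11:49076587-49096974) rose clearly. It measured 7.57, 6.50 and 15.4 CPM in medium and 34.5, 35.6 and 59.2 CPM in LPS in the WT pools. The Scnn1b-Tg pools gave 15.8, 13.5 and 19.01 CPM in medium and 59.2, 46.6 and 73.7 CPM in LPS. The increase was 4.47-fold in WT (log2 2.16 ± 0.27, adjusted p = 0.0001274, edgeR) and 3.72-fold in Scnn1b-Tg AMs (1.89 ± 0.26, adjusted p = 0.0002155). Its exons overlap those of Olfr56 and the antisense Gm12188 over 217 bases, and counting ignored strand, so reads of these genes cannot be told apart there.

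Iigp1 (ENSMUSG00000054072, chr18:60376027-60392634), the effector that coats parasite vacuoles, was barely detected. All 6 medium libraries held 0 counts, where the floor allows up to 0.163 CPM. The LPS libraries held 8, 23 and 10 counts in WT 16, 17 and 18 and 8, 15 and 5 counts in Tg 17, 18 and 19, so 3 of the 6 were at or under the floor. The mean LPS level was 1.60-fold the mean floor of the medium libraries in WT and 1.19-fold in Scnn1b-Tg AMs. These are bounds on the means and do not hold for each library. No test of this rise is given, since the gene passed the filter through its LPS libraries alone. No genotype difference was readable at this depth.

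In sum over the family, the 3 guanylate-binding members summed to 46.8 ± 17.2 CPM in medium and 563 ± 82.5 CPM in LPS for WT. For Scnn1b-Tg AMs the sums were 78.1 ± 7.76 and 936 ± 207 CPM. The immunity-related members summed to 121 ± 32.4 and 309 ± 36.5 CPM for WT, and to 157 ± 16.9 and 392 ± 76.0 CPM for Scnn1b-Tg AMs. In medium the IRG sum was the larger in each genotype, and after LPS the GBP sum was. All 7 members passed the test upward in WT and in Scnn1b-Tg AMs, where 15.2% and 18.8% of all genes tested did so, and 15.7% and 17.8% were called lower. Their median log2 fold change was 2.16 in WT and 1.89 in Scnn1b-Tg AMs, beside 0.00 and -0.02 over all genes. The GBP medians (3.76 and 3.72) were above the IRG medians (1.37 and 1.44), and the lowest GBP value, that of Gbp7, was above the highest IRG value, that of Ifi47, in each genotype.

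**Figure D3:**
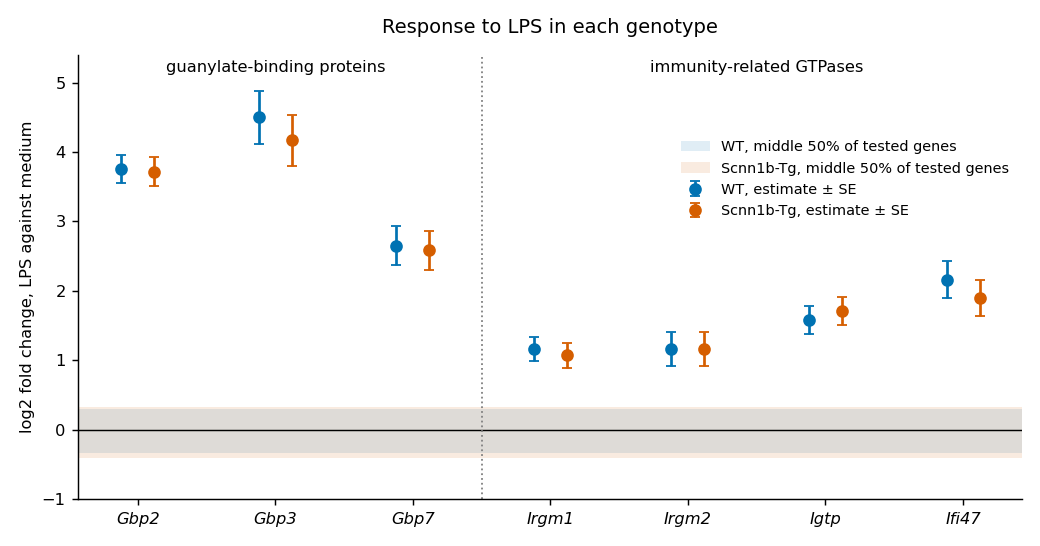
Log2 fold change of LPS against medium from the edgeR fit with its SE (n = 3 libraries per group) for 7 members in WT (blue) and Scnn1b-Tg AMs (orange). Shaded bands span the middle 50% of all tested genes. All values lie above the bands, from 1.07 for Irgm1 to 4.50 for Gbp3.

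Whether Scnn1b-Tg AMs held more of these transcripts than WT AMs was compared in LPS first. All 7 fitted differences were positive, from 0.28 for Irgm1 to 0.84 for Gbp3 on the log2 scale, with a median of 0.43 beside 0.00 over all genes, and 0 of 7 passed the adjusted threshold, which 0.051% of genes passed upward with edgeR and 0.765% with DESeq2. At an unadjusted p under 0.05, edgeR had 2 of the 7, Gbp2 and Gbp3, where 4.33% of genes were higher at that level. Gbp2 was 1.56-fold higher (log2 0.64 ± 0.19, 95% interval 0.22 to 1.06, adjusted p = 0.3952, edgeR). Gbp3 was 1.79-fold higher (0.84 ± 0.33, interval 0.10 to 1.57, adjusted p = 0.6574, edgeR). These same genes were the ones whose Scnn1b-Tg libraries all lay above their WT libraries, a separation that 5.72% of genes showed upward. The intervals of the other 5 included 0, the widest reaching 1.02 for Gbp7.

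The difference in LPS was larger in batch 1 than in batch 2 for all 7, but 1 arm of each batch is a single library and the dependence on batch was not tested. Within batch 1 (Tg 17 against WT 16 and WT 17) the differences in mean log2 of CPM plus 0.5 ran from 0.51 for Irgm1 to 1.03 for Gbp3. Within batch 2 (Tg 18 and Tg 19 against WT 18) they ran from -0.01 for Ifi47 to 0.68 for Gbp3. For Gbp2 the batches gave 0.83 and 0.51 and for Gbp3 1.03 and 0.68, and the 4 IRG members were at 0.12 or less in batch 2. Without the LPS library of Tg 17 the median of the 7 fell from 0.43 to 0.09. Without that of WT 16, the lowest library of the 6 for all 7 genes, it was 0.31.

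In medium the 7 differences were positive too, from 0.16 for Igtp to 1.17 for Gbp3, with a median of 0.50 beside 0.01 over all genes. With edgeR 0 of 7 passed, where 0.102% of genes were called higher, and 3 had an unadjusted p under 0.05, which 7.08% of genes had upward. DESeq2 called Gbp2 (adjusted p = 0.02426) and Gbp3 (0.0183), where it called 2.02% of genes higher. Gbp2 was 1.60-fold higher (log2 0.68 ± 0.19, adjusted p = 0.1775, edgeR), and its Scnn1b-Tg libraries lay above its WT libraries, as was the case for 9.02% of genes. Gbp3 was 2.26-fold higher (1.17 ± 0.35, adjusted p = 0.1987, edgeR) with overlapping groups. Ifi47 was the third of the 3, with a log2 difference of 0.64 ± 0.26 (adjusted p = 0.3427, edgeR) and overlapping groups. Within batch 1 the differences ran from 0.47 for Igtp to 1.74 for Gbp3, and within batch 2 from -0.23 for Igtp to 0.38 for Gbp3. Without the medium library of WT 18 the median of the 7 was 0.93.

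**Figure D4:**
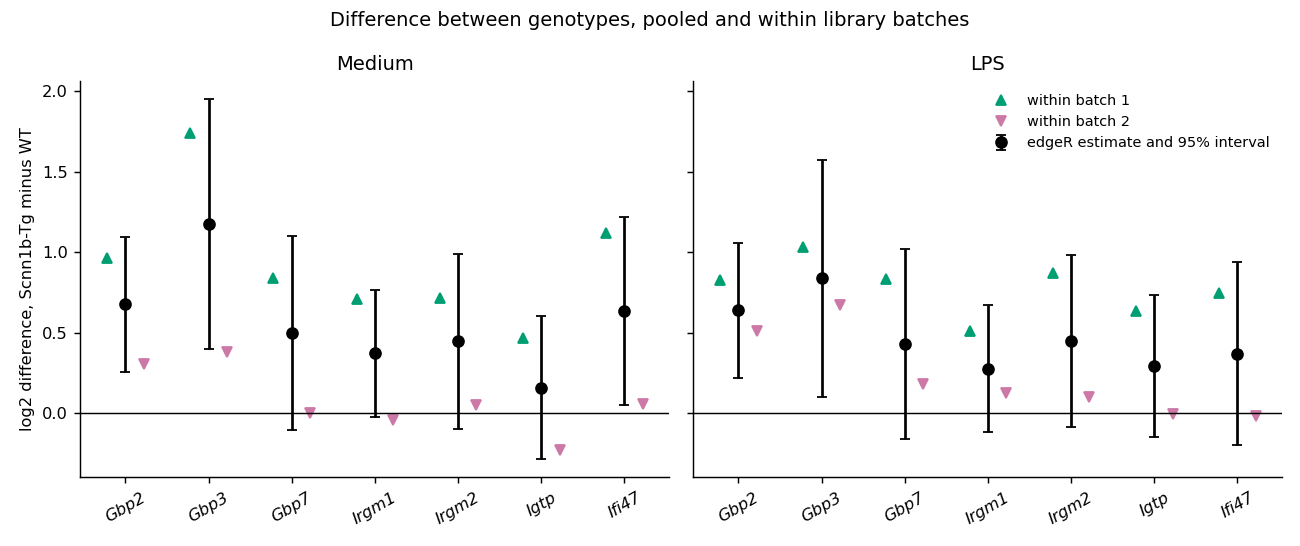
Log2 difference of Scnn1b-Tg and WT AMs for 7 members in medium (left) and LPS (right). Black points are edgeR estimates with 95% intervals, and triangles are differences of mean log2 (CPM + 0.5) within batch 1 (up) and batch 2 (down); batch 1 exceeds batch 2 for all 7 genes in each treatment, and in batch 2 the difference of Gbp3 is the highest, at 0.38 and 0.68.

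Some marker sums moved with the genotype. AM markers summed to 11811 to 12676 CPM in WT and 14018 to 17377 CPM in Scnn1b-Tg libraries in medium, without overlap. In LPS these sums overlapped. Chil3, Pparg, Fabp4 and Car4 were higher in Scnn1b-Tg libraries in medium without overlap, and the other AM markers overlapped. In LPS Car4 was higher and Siglecf and Pparg were lower without overlap, and the rest overlapped. Epithelial markers summed to 80.4 to 119 CPM in WT and 36.4 to 73.7 CPM in Scnn1b-Tg libraries, without overlap, and all 7 were detected. They did not all move. Scgb1a1 lay at 34.2 to 71.7 CPM in WT and 13.9 to 29.0 CPM in Scnn1b-Tg libraries in medium. In LPS it lay at 52.4 to 68.9 and 13.8 to 35.4 CPM. Sftpc, Epcam and Cdh1 overlapped between genotypes in each treatment. Neutrophil markers summed to 17.1 to 20.8 CPM in WT and 25.6 to 37.7 CPM in Scnn1b-Tg libraries in medium, and to 12.3 to 15.6 and 16.9 to 22.2 CPM in LPS, without overlap in either treatment and with S100a9 at the floor in every group. Of the single neutrophil markers, only Cxcr2 separated the genotypes in medium (3.63 to 4.35 CPM in WT and 5.55 to 9.635 CPM in Scnn1b-Tg libraries). In LPS each of them overlapped between genotypes. The part of these marker changes in the differences of GBPs and IRGs was not tested.

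The size of the LPS response did not differ detectably between the genotypes. For the 7 members the difference of responses, Scnn1b-Tg minus WT, lay between -0.34 (Gbp3) and 0.13 (Igtp) on the log2 scale with a median of -0.07, and 0 of 7 had an unadjusted p under 0.05 with edgeR or DESeq2, against 5.79% of all genes with edgeR. For Gbp2 the difference was -0.04 with a 95% interval of -0.62 to 0.54, and for Irgm2 it was 0.00 with an interval of -0.74 to 0.74, so differences of this order would not be seen. By pool, Gbp2 rose by 3.72, 4.11 and 3.42 in WT 16, 17 and 18 and by 3.78, 3.45 and 3.82 in Tg 17, 18 and 19 on the scale of log2 CPM plus 0.5. Exact permutation tests of 3 against 3 pools gave p of 0.2 (Ifi47) to 1 (Gbp2), two-sided, where 0.1 is the smallest possible.

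The pools fell in much the same order for most members. In medium, WT 16 or WT 17 was the lowest of the 6 pools for each of the 7 genes, and WT 18 was the highest WT pool for all 7. In LPS, WT 16 was the lowest of all 6 pools for 7 of 7 genes. Tg 18 was the lowest Scnn1b-Tg pool for 7 of 7 in LPS and for 6 of 7 in medium. The highest pool in LPS was Tg 17 for 4 genes (Gbp7, Irgm1, Irgm2 and Igtp) and Tg 19 for 3 (Gbp2, Gbp3 and Ifi47). After subtraction of the group means, the 21 pairs of members correlated at a Pearson r of 0.44 to 0.95 over the 12 libraries, with a median of 0.83. The points share libraries and pools, and Igtp and Irgm2 may share reads, so these values are descriptions.

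**Figure D5:**
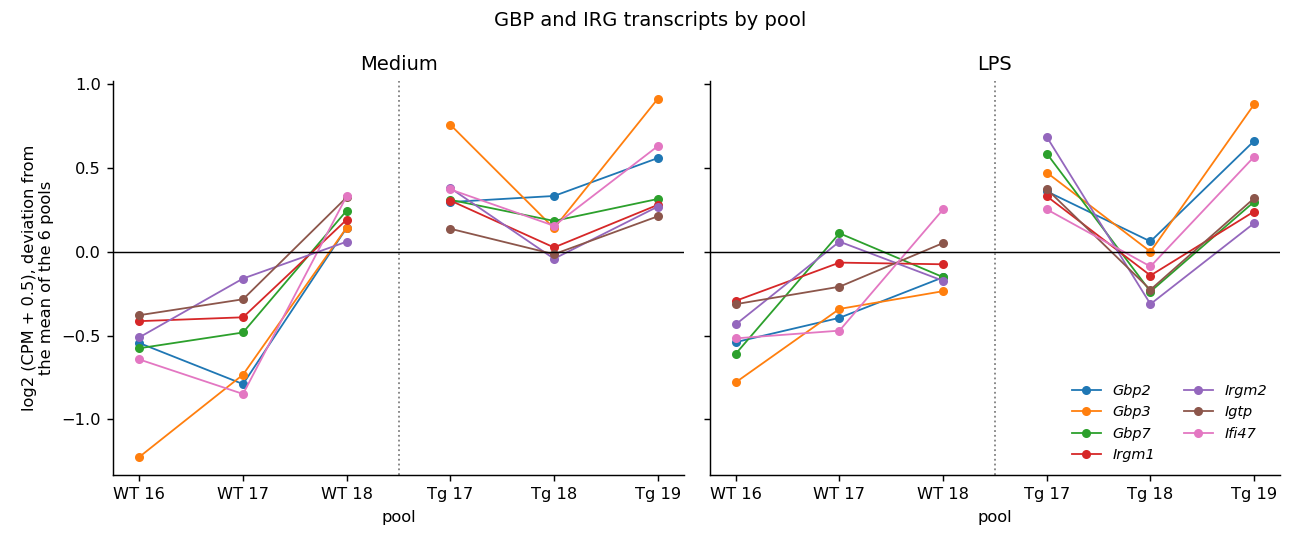
Deviation of each pool from the mean of the 6 pools, in log2 (CPM + 0.5), for 7 members in medium (left) and LPS (right), with lines joining the pools of a genotype for 1 gene. WT 16 is lowest for all 7 genes in LPS, and Tg 18 is below Tg 17 and Tg 19 for all 7 in LPS.

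Treatment accounted for a median of 90.5% of the variance of the 7 members over the libraries, genotype for 5.60%, the pool within a genotype for 5.90%, the interaction for 0.067% and the residual for 1.06%. Over all genes tested the medians were 30.8%, 3.92%, 31.0%, 1.73% and 9.50%. The share of treatment was highest for Gbp2 (94.3%) and lowest for Irgm2 (74.3%), and the pool share was highest for Irgm2 (14.4%). The SD within groups was 0.24 for Irgm1 and 0.48 for Gbp3 on the log2 scale, with a median of 0.33 over the 7 and 0.21 over all genes. The SD of each of the 7 was above the median of all genes.

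Other genes of the family did not all follow. The counts in this and the following lists stand beside 15.2% of all genes called higher and 15.7% lower with LPS in WT, and 18.8% and 17.8% in Scnn1b-Tg AMs. Between genotypes, 4.33% of all genes were higher in LPS at an unadjusted p under 0.05, and in medium 7.08% were higher and 5.91% lower. Of 22 listed relatives, 17 were tested, of which 8 rose and 4 fell with LPS in WT and 7 rose and 4 fell in Scnn1b-Tg AMs. Gbp2b, the nearest relative of Gbp2, rose in WT from 0.25 ± 0.17 to 18.7 ± 3.38 CPM, and with the transgene from 0.66 ± 0.39 to 53.1 ± 8.03 CPM (log2 6.17 ± 0.47 and 6.32 ± 0.44, adjusted p = 3.803e-06 and 1.282e-06, edgeR). In LPS it lay at 15.9, 17.7 and 22.4 CPM in the WT pools and at 54.0, 44.7 and 60.6 CPM in the Scnn1b-Tg pools, without overlap (log2 1.52 ± 0.34, adjusted p = 0.2159). Gm12250, which encodes Irgb10, a GTPase that acts with GBPs on bacterial membranes, rose from 2.78 ± 1.38 to 13.3 ± 4.03 CPM and from 5.27 ± 0.55 to 19.8 ± 2.03 CPM (log2 2.29 ± 0.28 and 1.91 ± 0.27, adjusted p = 0.0001135 and 0.0002407). Gbp4, Mx1 and Tgtp2 rose as well, in WT by 2.59, 4.19 and 2.00 and in Scnn1b-Tg AMs by 2.52, 2.00 and 2.66 on the log2 scale. In medium, pools WT 16, 17 and 18 held 5, 11 and 9 counts of Gbp4 and 3, 5 and 15 of Mx1. The same pools held 20, 3 and 17 counts of Gbp2b and 14, 9 and 33 of Tgtp2. These lie near the floor, so the size of the WT changes is uncertain. Counts of these genes in Scnn1b-Tg medium libraries were low too, from 8 (Gbp4) to 63 (Mx1).

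Gbp8, 9930111J21Rik1, 9930111J21Rik2 and Irgc1 fell in each genotype. For Gbp8 the level was 7.91 ± 0.92 CPM in medium and 4.10 ± 0.77 CPM in LPS in WT, and 13.3 ± 1.03 and 5.41 ± 1.58 CPM in Scnn1b-Tg AMs (log2 -0.95 ± 0.22 and -1.30 ± 0.22, adjusted p = 0.007241 and 0.0008173, edgeR). The IRG-like 9930111J21Rik1 fell from 21.8 ± 1.93 to 7.72 ± 2.67 CPM and from 29.2 ± 2.23 to 9.49 ± 3.34 CPM (-1.49 ± 0.27 and -1.64 ± 0.27), and its neighbour 9930111J21Rik2 fell by 1.24 and 1.51 on the log2 scale, as did Irgc1 by 1.51 and 2.10. These 4 were named after their values were seen, beside the 3 largest changes named by rule. Between genotypes 0 of the 17 were called with edgeR, and 11 had an unadjusted p under 0.05 in medium and 2 in LPS, all higher in Scnn1b-Tg AMs. DESeq2 called Mx1 (adjusted p = 0.01111) and Gvin1 (0.04016) higher in medium and 0 of the 17 in LPS. Mx1 was near the floor in WT AMs in medium, which limits this call. Gm4951 was at the floor in WT AMs in medium, at 0 to 8 counts, so no test of it is given.

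Upstream of the family, LPS reaches interferon beta through Tlr4 and Ticam1, and interferons signal through JAK kinases. Ifnb1 held at most 7 counts in any library and was at the floor in all 4 groups, and Ifng was not analysed here. Of the ligand list, 3 of 12 genes were tested, and Il12b rose by 4.57 ± 0.75 in WT and 4.08 ± 0.65 in Scnn1b-Tg AMs on the log2 scale, as did Il27 by 1.09 ± 0.23 and 1.39 ± 0.22. Il18, the third, fell by 0.50 in WT (SE 0.16, adjusted p = 0.03816, edgeR) and was not called in Scnn1b-Tg AMs (log2 -0.17 ± 0.16). Of 22 genes for interferon receptors, their signalling and IRF factors, 13 rose and 3 fell in WT and 14 rose and 2 fell in Scnn1b-Tg AMs. Irf1, which activates Gbp genes, rose by 1.11 ± 0.10 in WT and 1.60 ± 0.10 in Scnn1b-Tg AMs on the log2 scale (adjusted p = 1.111e-05 and 5.935e-07, edgeR). The feedback inhibitors Socs3 (4.22 and 4.29) and Socs1 (2.65 and 3.07) were among the largest changes of the list, with Usp18 (2.80) in WT and Batf2 (2.88) in Scnn1b-Tg AMs. Between genotypes 0 of the 22 were called with edgeR, with 4 higher in Scnn1b-Tg AMs at an unadjusted p under 0.05 in LPS and 2 higher and 1 lower in medium. DESeq2 called Irf1 in LPS (adjusted p = 0.04948), and in medium Irf7 (0.002618) and Nlrc5 (0.00168), all higher in Scnn1b-Tg AMs, and Ptpn2 (0.02901), which was lower, where it called 1.62% of genes lower. Of the 8 genes from Tlr4 to the interferon beta kinases, 5 rose in each genotype, 2 fell in WT and 1 in Scnn1b-Tg AMs. The LPS co-receptor Cd14 rose by 3.34 ± 0.10 in WT and 4.10 ± 0.10 in Scnn1b-Tg AMs and was the only one of the 8 called between genotypes with edgeR, lower in Scnn1b-Tg AMs in medium (log2 -0.79 ± 0.09, adjusted p = 0.01005, edgeR), as were 0.16% of genes.

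LC3 conjugation and prenylation place GBPs and IRGs on membranes. Of 18 genes for these steps, 5 rose and 1 fell in WT and 4 rose and 1 fell in Scnn1b-Tg AMs, with median log2 fold changes of -0.04 and 0.03, and 0 of the 18 were called between genotypes with edgeR or DESeq2. At an unadjusted p under 0.05 edgeR had 0 in LPS and 1 higher and 3 lower in medium. Sqstm1, an autophagy adaptor, rose by 0.92 ± 0.19 and 1.32 ± 0.19, the ubiquitin ligase Trim21 rose by 0.88 ± 0.13 and 1.05 ± 0.13, and Atg7, which activates LC3 for conjugation, fell by 0.80 and 1.13 on the log2 scale. Of 10 inflammasome genes, 5 rose and 2 fell in WT and 6 rose and 1 fell in Scnn1b-Tg AMs. Casp4 rose in WT from 13.5 ± 2.03 to 38.3 ± 7.23 CPM, and in Scnn1b-Tg AMs from 11.3 ± 1.89 to 53.4 ± 9.16 CPM (log2 1.50 ± 0.13 and 2.23 ± 0.13, adjusted p = 9.193e-06 and 4.353e-07, edgeR). Il1b rose by 5.73 ± 0.26 and 6.46 ± 0.27 and Nlrp3 by 3.95 ± 0.15 and 4.21 ± 0.16, and 0 of the 10 were called between genotypes with edgeR or DESeq2, with 1 higher in LPS and 2 lower in medium at an unadjusted p under 0.05 (edgeR).

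Of 20 other interferon-inducible genes, 19 were tested, and 17 rose and 0 fell in each genotype, and their median log2 fold change was 2.68 for WT and 2.07 for Scnn1b-Tg AMs. Ccl5, a chemokine, was the only one called between genotypes with edgeR. It measured 33.8, 38.4 and 43.1 CPM in the WT pools and 144, 204 and 181 CPM in the Scnn1b-Tg pools in LPS (log2 2.05 ± 0.13, adjusted p = 0.0002294, edgeR), without overlap. Cxcl10 rose by 4.96 ± 0.29 and 5.71 ± 0.30. Nos2 was at the floor in medium in each genotype and is given no fold. It is counted among the 17 and in the medians. Since Nos2 passed the filter through its LPS libraries alone, its call adds nothing to that count. In medium 10 of the 19 had an unadjusted p under 0.05 with higher values in Scnn1b-Tg AMs, and in LPS 4 did.

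The genes most like the members were taken from all tested genes by Pearson r with the mean z-score of the members over the 12 libraries. They were Ifit1 (0.997), Herc6 (0.994), Gm43302 (0.994), 6530402F18Rik (0.991), Tapbp (0.991), Ifih1 (0.991), Ogfr (0.989) and Cfb (0.989). Ifit1 averaged 14.0 CPM in medium and 219 CPM in LPS for WT, and 24.4 and 386 CPM for Scnn1b-Tg AMs. After the group means were subtracted, which leaves the differences between libraries of a group, the closest genes were Rsad2 (0.995), Samhd1 (0.983), Ifit2 (0.974), Cmpk2 (0.974), Sp100 (0.962), Dhx58 (0.959), Irf9 (0.959) and Ifit1 (0.956). Samhd1 differed little between groups, with means of 129 and 144 CPM in medium and LPS for WT and 158 and 161 CPM for Scnn1b-Tg AMs.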

How the data were processed

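Per the submitters' processing notes and the methods, the authors aligned reads of SMART-Seq v4 libraries (paired-end, 125 bp) to mm10 with HISAT2 without regard to strand, quantified GENCODE M20 genes with StringTie and deposited estimated counts per gene, which were analysed as whole numbers as deposited. At low values 1 read was worth about 2.5 counts, so a count is not a read. GENCODE M21, also on mm10, gave symbols and positions for 20158 of the IDs. Genes were kept by filterByExpr (minimum count 10, total 15). Groups were compared with edgeR 4.0.16 (R 4.3.3; TMM, quasi-likelihood test, batch as a term, all 12 libraries, two-sided, Benjamini-Hochberg, threshold 0.05), after the steps were tested on simulated data. No source states that the pools came from separate litters, so p-values measure only the spread between these samples.

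Alternatives were DESeq2 1.42.0, relative log expression factors, no filter, counts divided by 5, no batch term, voom (limma 3.58.1) with the pool as a random effect, a block, only the 6 libraries compared and leaving out each library. Named genes were all members, up to 3 called genes with the largest change per list and contrast, Irf1, Ifnb1, Ifng, Gm12250, Casp4 and Ccl5, and the 8 genes most like the members by each measure, and a result of this rule is not reported here. The members and lists were chosen with earlier results of these data known. Promoter windows were searched for motifs by script. Of the lists, Gbp6, Gbp10, Gm4841, Ifna1, Ifna2, Ifna5, Ifng, Ifnl2 and Ifnl3 were not analysed here, nor was Gbp5, and protein sequences were not used here. Intervals and floors cover counting error or the spread of 3 libraries only.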

Additional observations from a re-analysis of the deposited data

How the results depend on the processing

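The rise with LPS held for the 7 detected members in WT and Scnn1b-Tg AMs under all 14 alternatives of each comparison. The genotype differences of these 7 remained positive under these alternatives in LPS and in medium. Within batch 2 alone they were negative for Igtp (-0.005) and Ifi47 (-0.01) in LPS. In medium they were negative there for Irgm1 (-0.04) and Igtp (-0.23), and the rest were positive. DESeq2 called 2 members higher in Scnn1b-Tg AMs in medium, Gbp2 (log2 0.68) and Gbp3 (1.18), where edgeR called 0; the cause was not tested. When 1 library was left out, the median log2 fold change of the 7 ranged from 1.996 to 2.511 for LPS in WT (highest without WT 18 in medium), from 1.663 to 2.115 for LPS in Scnn1b-Tg AMs, from 0.0913 (without Tg 17) to 0.623 (without Tg 18) between genotypes in LPS, and from 0.353 to 0.9309 (without WT 18) in medium. Without 1 pool the median difference of LPS responses ranged from -0.29 to 0.12. Over the whole table DESeq2 called 501 genes between genotypes in medium and 146 in LPS, where edgeR called 36 and 7.

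Medium and LPS libraries of a pool share its number in the titles and were taken to hold the same pooled cells. Their deviations over the whole table, after group and batch were fitted, correlated at r of 0.149, 0.151, -0.208, -0.242, 0.044 and 0.020. The batch term removes part of the difference between pools. The correlation within pools estimated by limma, also with the batch term, was 0.3265, and why these values differ was not tested. With the pool as a replicate block, all 7 detected members were called in each LPS comparison, with medians of 2.19 and 1.88, so this pairing changed no call among the 7. With the replicate number as a block, 0 were called between genotypes and the medians were 0.24 in LPS and 0.30 in medium. Depth limits Iigp1 alone among the 8 members, and 3 pools per group limit the genotype comparisons.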
